A study of Mus musculus with 2 samples.

Results

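The 8 transcription factor genes of the joint and the cartilage described here, *Osr1*, *Osr2*, *Erg*, *Cux1*, *Sox9*, *Sox5*, *Sox6* and *Trps1*, were followed in single cells from amputated mouse digits. They were picked by symbol, and all 8 were found among the 33696 genes listed for both libraries. The study asked whether fibroblast growth factor 8 (FGF8) turns on the program of joint development at a wound that otherwise does not regenerate. ICR mice had the middle phalanx (P2) of hindlimb digits 2 and 4 amputated at postnatal day 3, and an agarose bead was implanted at postnatal day 7. The bead carried FGF8 (500 ng/µl) in one group and bovine serum albumin (BSA, 0.1%) in the other. At 24 h after implantation, at postnatal day 8, the tissue distal to the P2 stump was taken without its epithelium and dissociated for single-cell RNA sequencing. Each group is 1 library, pooled from 20 digits of 5 mice of both sexes, so the pool of animals, the dissection and the treatment cannot be told apart, and the pools may hold digits that do not respond.

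OSR1 and OSR2 are zinc finger factors of the odd-skipped family that mark the joint interzone, the layer of flattened cells from which a synovial joint forms, and later the connective tissue around it. ERG, an ETS factor, marks future articular chondrocytes and is also a defining factor of endothelial cells. CUX1, a homeodomain factor of the CUT family, has been placed in the interzone of the developing limb, where it can hold back cartilage formation. SOX9 is the master regulator of chondrocytes, and SOX5 and SOX6 are related proteins that help it to switch on the genes of the cartilage matrix. TRPS1 is an atypical GATA factor that represses transcription in growth plate and joint precursors and limits the maturation of chondrocytes.

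The values are counts of unique molecular identifiers (UMIs), each standing for 1 captured transcript. They were summed over the cells of a type and scaled to counts per 1000000 UMIs (CPM). The kept cells numbered 3252 in the BSA library (54376379 UMIs, median 15377 per cell) and 6715 in the FGF8 library (103223720 UMIs, median 12251 per cell). With 1 library per group there was no test. Every interval is a 95% interval that covers counting error only, and says nothing of the spread between animals. A gene is called higher or lower where the CPM ratio passed 1.5-fold with at least 50 UMIs over both libraries, which is a rule of size and not a test. The pools differed in the sex of their cells: 79.3% of the sex-called cells were female in the BSA library and 24.6% in the FGF8 library. Ratios among the cells of each called sex are therefore given for the main results. In BSA 1943 cells were called female and 507 male, and in FGF8 1151 and 3523. The other kept cells had no call, so the values of the 2 sexes do not make up the whole of a pooled value, which can lie outside both. In addition, 6 cell barcodes occurred in both libraries, of which 4 were kept in each.

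Cells were grouped into 8 clusters without use of the 8 genes. The connective tissue cells, called fibroblast-like from *Dpt*, *Mfap5* and related markers, numbered 1704 (BSA) and 3312 (FGF8). The chondrocyte-like cells, led by *Snorc*, *Col2a1* and *Col9a2*, numbered only 66 and 142. A finer partition separated macrophage-like, keratinocyte-like and mast-like cells. It also separated a cluster of 277 and 1135 cells, led by *Prg4* (lubricin, the lubricant of the joint surface), *Il1rl1* and *Mmp3* but also by cell cycle genes such as *Plk1* and *Birc5*. It is called here by *Prg4* and *Il1rl1*, and most of the cells in this cluster belong to the fibroblast-like cluster. *Osr1* was among the 10 leading genes of the fibroblast-like cluster although it was not used to draw it.

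Each of the 8 genes had its own distribution over the cell types. *Osr1* and *Osr2* were genes of connective tissue in both libraries. The fibroblast-like cells held 96.3% (BSA) and 96.2% (FGF8) of all *Osr1* UMIs, and 96.9% and 95.1% of all *Osr2* UMIs, while they gave 65.3% and 67.7% of the UMIs of all genes. *Osr1* stood at 102 CPM (95% interval 98.4 to 105) in BSA and 75.2 CPM (73.2 to 77.3) in FGF8 fibroblast-like cells. *Osr2* stood at 107 CPM (104 to 111) and 59.3 CPM (57.5 to 61.1). In the chondrocyte-like cells the same genes gave only 3 and 21 *Osr1* UMIs and 18 and 20 *Osr2* UMIs, too few for a call. Apart from 16 *Osr1* UMIs in BSA mast-like cells, of which 1 cell held 81.3%, no other type but the *Prg4* and *Il1rl1* cells came near the fibroblast-like level of *Osr1* or of *Osr2*. The highest of these other types were the neutrophil-like cells of the FGF8 library with 19.5 CPM of *Osr2*, from 33 UMIs of which 1 cell held 39.4%. The 9 fibroblast markers summed to 6005 CPM in the same neutrophil-like cells, and their part in this level was not tested.

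**Figure D1:**
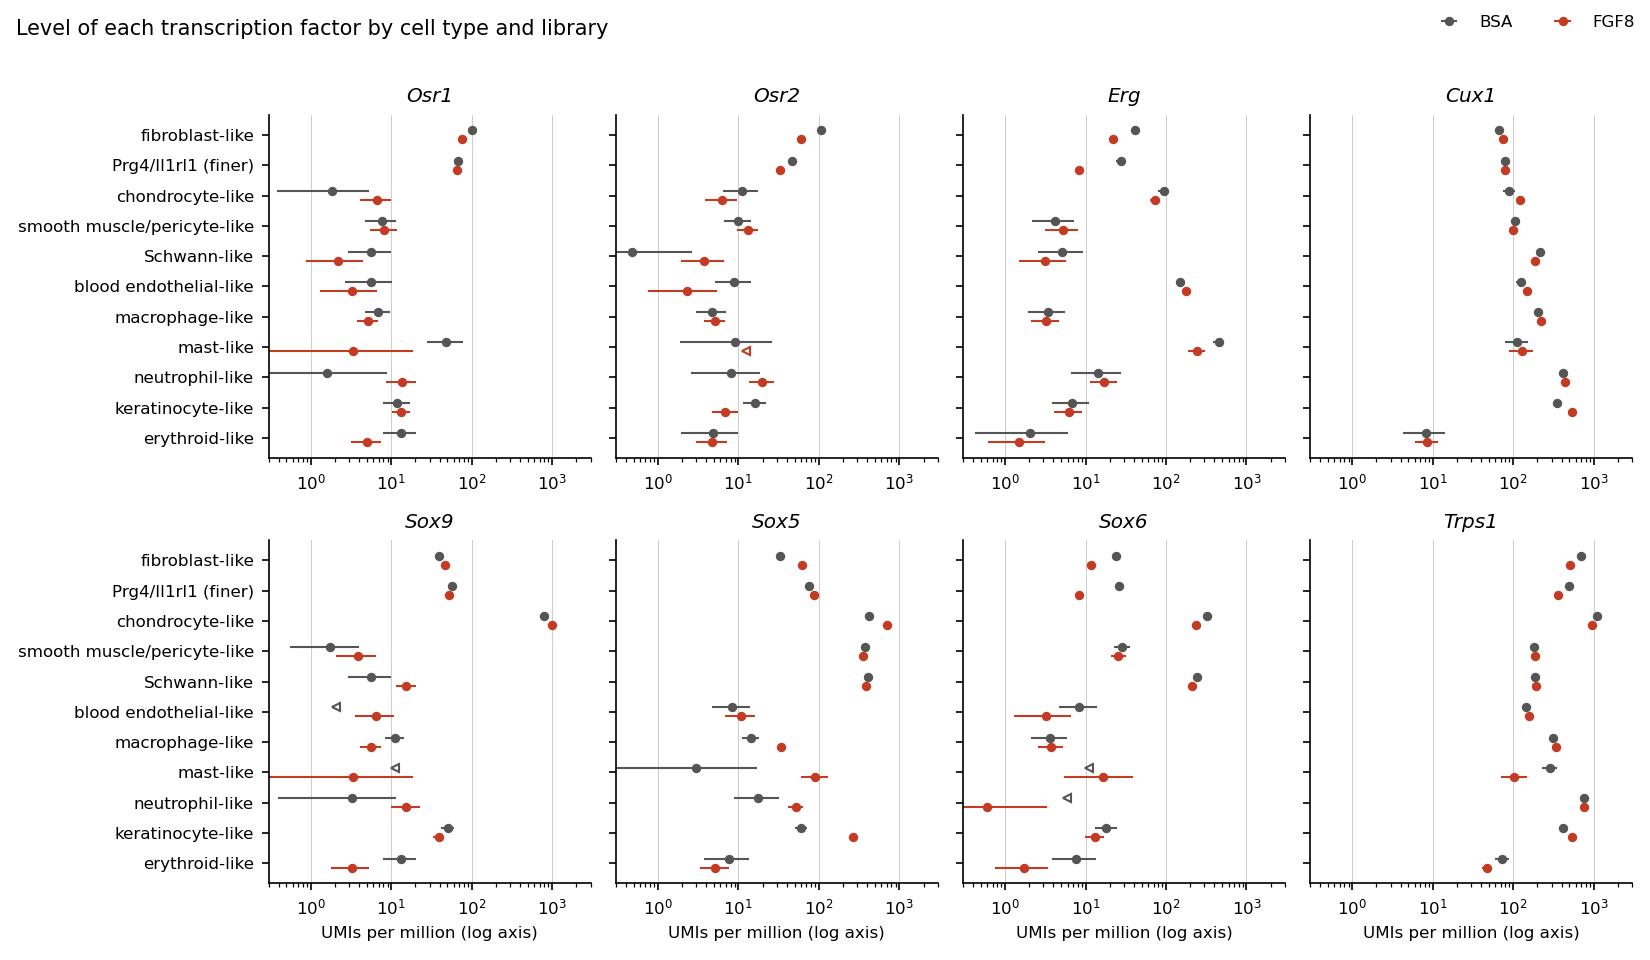
Level of each gene in CPM (horizontal log axis) in 11 cell groups, for the BSA library (grey) and the FGF8 library (red). Points are sums over the cells of a type, bars are exact Poisson 95% intervals that cover counting error only and may run past the left edge, and open triangles mark the upper limit where no UMI was counted. *Osr1* and *Osr2* stand apart in the fibroblast-like and *Prg4*/*Il1rl1* cells, *Sox9* in the chondrocyte-like cells, and *Cux1* and *Trps1* are spread over nearly all types; the *Prg4*/*Il1rl1* cells come from the finer partition and mostly belong to the fibroblast-like cells as well.

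*Sox9* had its highest level in cartilage, but not most of its UMIs. The chondrocyte-like cells, 2.03% of the BSA and 2.11% of the FGF8 cells, held 45.0% and 46.8% of all *Sox9* UMIs, and the far more numerous fibroblast-like cells held 47.8% and 48.1%. Its level in chondrocyte-like cells was 803 CPM (760 to 847) in BSA and 982 CPM (948 to 1017) in FGF8, against 39.2 CPM (37.2 to 41.3) and 46.1 CPM (44.5 to 47.7) in the fibroblast-like cells. *Sox5* and *Sox6* peaked in the same cells but were not limited to them. *Sox5* reached 426 CPM (395 to 459) in BSA and 696 CPM (668 to 726) in FGF8 chondrocyte-like cells. It was close behind in Schwann-like cells, the glia of peripheral nerve, with 407 CPM (380 to 435) and 389 CPM (367 to 411), and in smooth muscle or pericyte-like cells with 376 CPM (354 to 399) and 355 CPM (336 to 375). In the BSA library the intervals of the chondrocyte-like and Schwann-like *Sox5* levels overlapped, whereas in the FGF8 library the chondrocyte-like level lay above all others. *Sox6* had its highest levels in chondrocyte-like cells, 319 CPM (293 to 348) in BSA and 239 CPM (222 to 257) in FGF8. The Schwann-like cells followed with 240 CPM (220 to 262) and 210 CPM (194 to 226), and the latter interval overlapped that of the FGF8 chondrocyte-like cells. Unlike *Sox5*, *Sox6* was low in smooth muscle or pericyte-like cells, at 28.6 CPM (22.8 to 35.5) and 25.7 CPM (20.8 to 31.4).

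*Erg* had its highest level in mast-like cells, 453 CPM (383 to 531) in BSA and 241 CPM (188 to 303) in FGF8, although these were only 38 and 57 cells, and 2 cells in each library held at least 50% of the UMIs. The blood endothelial-like cells, a known site of this factor, followed with 149 CPM (131 to 168) and 179 CPM (162 to 198). The chondrocyte-like cells gave 93.6 CPM (79.4 to 110) and 72.1 CPM (63.0 to 82.0), and the fibroblast-like cells 40.9 CPM (38.8 to 43.0) and 21.9 CPM (20.8 to 23). In the FGF8 library the mast-like and endothelial-like intervals overlapped, as did those of the fibroblast-like and neutrophil-like cells, the latter at 14.5 CPM (6.62 to 27.5) and 17.2 CPM (11.5 to 24.7). Every other type outside the *Prg4* and *Il1rl1* cells lay below these.

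*Cux1* and *Trps1* were found nearly everywhere. *Cux1* was highest in neutrophil-like cells (421 CPM, 372 to 476, in BSA and 436 CPM, 405 to 469, in FGF8) and keratinocyte-like cells (353 CPM, 330 to 378, and 544 CPM, 522 to 566), whose intervals overlapped in BSA, and lower in fibroblast-like cells (66.5 CPM, 63.8 to 69.2, and 75.1 CPM, 73.0 to 77.1). The *Cux1* locus also encodes CASP, a Golgi protein with another 3′ end, and the counts do not separate these products. *Trps1* reached 1111 CPM (1060 to 1163) in BSA and 954 CPM (920 to 988) in FGF8 chondrocyte-like cells. The neutrophil-like cells followed, with 761 CPM (694 to 833) and 759 CPM (718 to 802), and in BSA this interval overlapped that of the fibroblast-like cells at 691 CPM (682 to 699). In FGF8 the fibroblast-like cells had 512 CPM (507 to 517). Erythroid-like cells, which should lack most of the 8 genes, were lowest in *Trps1* with 73.0 CPM (59.7 to 88.2) and 47.6 CPM (41.5 to 54.3).

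The share of cells with a UMI was compared after each cell was thinned to 2000 UMIs, to set depths equal. A *Sox9* UMI was then found in 62.7% (95% Clopper-Pearson interval 49.1 to 75.0) of 59 BSA and 71.7% (63.5 to 79.1) of 138 FGF8 chondrocyte-like cells. In the fibroblast-like cells it was found in 4.93% (3.93 to 6.09) and 6.69% (5.84 to 7.61), and in erythroid-like cells, which should lack the gene, in 2.6% (0.316 to 9.07) and 0.208% (0.00527 to 1.16). An *Osr1* UMI was found in 14% (12.3 to 15.8) and 13.1% (11.9 to 14.3) of fibroblast-like cells, against 1.30% and 0.625% of erythroid-like cells. Before thinning, the shares for *Osr1* were 51.2% and 50.8% of fibroblast-like cells (median 20182 and 18651 UMIs) against 4.82% and 3.09% of erythroid-like cells (median 18691 and 6996 UMIs). For *Sox6* in FGF8 fibroblast-like cells the thinned share, 1.92% (1.48 to 2.47), was above that of the erythroid-like cells at 0.208% (0.00527 to 1.16). In BSA the share of 3.33% (2.51 to 4.32) lay inside the erythroid-like interval of 0.0329 to 7.02. That interval comes from 77 cells, and before thinning 1 cell held 45.5% of the 11 *Sox6* UMIs of this type. The BSA comparison therefore cannot tell whether the fibroblast-like share is above the erythroid-like share. Whether erythroid-like cells lack *Sox6* was not tested, so in neither library does their share measure background for this gene.

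In the fibroblast-like cells *Osr2*, *Erg* and *Sox6* were lower in the FGF8 library by over 1.5-fold, *Sox5* was higher by over 1.5-fold, and *Osr1*, *Cux1*, *Sox9* and *Trps1* stayed within 1.5-fold. Of the 15887 genes measured in these cells, 9.71% were higher and 12.5% lower by this rule, beside 1 and 3 of the 8 members; the median log2 ratio of all genes was -0.07.

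Of the odd-skipped genes *Osr2* passed 1.5-fold and *Osr1* did not. *Osr2* went from 107 to 59.3 CPM, a log2 ratio of FGF8 over BSA of -0.85 (-0.92 to -0.79), or 1.81-fold lower. It was -0.93 (-1.05 to -0.82) among female-called and -0.81 (-0.93 to -0.69) among male-called cells. *Osr1* had a log2 ratio of -0.43 (-0.50 to -0.37), which is under 1.5-fold, with -0.59 (-0.69 to -0.48) among female-called and -0.17 (-0.29 to -0.04) among male-called cells. The intervals of the ratios for *Osr1* and *Osr2* did not overlap.

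*Erg* gave 1451 UMIs in BSA and 1532 UMIs in the larger FGF8 population, a log2 ratio of -0.90 (-1.0 to -0.79), or 1.86-fold lower. Female-called and male-called cells gave nearly the same ratio, -0.95 (-1.14 to -0.77) and -0.86 (-1.05 to -0.66). Among the other types with *Erg*, the 9 genes of the blood endothelial list summed to 19.97 CPM in BSA and 25.0 CPM in FGF8 fibroblast-like cells, and the 7 mast markers to 19.8 and 12.5 CPM, all of them detected; their part in the *Erg* ratio was not tested. *Cux1* had a log2 ratio of 0.17 (0.10 to 0.25), with 0.18 (0.07 to 0.29) among female-called and 0.55 (0.39 to 0.71) among male-called cells.

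The 3 *Sox* genes did not move together. *Sox9* was at 39.2 CPM in BSA and 46.1 CPM in FGF8, a log2 ratio of 0.23 (0.14 to 0.32), and it was above 0 in both sexes. *Sox5* was at 33.3 CPM (31.5 to 35.3) and 62.0 CPM (60.2 to 63.9), a log2 ratio of 0.90 (0.80 to 0.99), or 1.86-fold higher. *Sox6* was at 24.1 CPM (22.5 to 25.8) and 11.8 CPM (11 to 12.6), a log2 ratio of -1.03 (-1.17 to -0.89), or 2.05-fold lower. *Sox5* and *Sox6*, which are close relatives and often act as a pair, thus lay on opposite sides of 0 in the same cells. The size of the *Sox5* ratio depended on the sex of the cells, with 0.53 (0.40 to 0.67) among female-called and 2.06 (1.78 to 2.35) among male-called cells, the latter from only 105 BSA UMIs; *Sox6* gave -0.81 (-1.04 to -0.59) and -0.76 (-1.06 to -0.46). The 12 chondrocyte markers, all detected, summed to 264 CPM in BSA and 222 CPM in FGF8 fibroblast-like cells, and the 9 fibroblast markers to 44597 and 24143 CPM; their part in these ratios was not tested. These calls depended on how the cells were grouped and weighted. At a clustering resolution of 0.2 only 887 and 1270 cells kept the fibroblast-like name, and a cluster of 608 and 1593 cells led by *Prg4* was named tenocyte-like. In the fibroblast-like set that was left, 0 of the 8 were lower and 2 higher, and *Sox6* had a ratio of 0.33. The *Sox5* ratio fell under 1.5-fold when cells had equal weight (0.50) or were thinned to 2000 UMIs (0.36), and 33 of the 1704 BSA cells held at least 50% of its UMIs.

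*Trps1*, the member with the most UMIs, had 691 and 512 CPM, a log2 ratio of -0.43 (-0.46 to -0.41), with -0.57 (-0.61 to -0.53) among female-called and -0.26 (-0.31 to -0.22) among male-called cells.

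**Figure D2:**
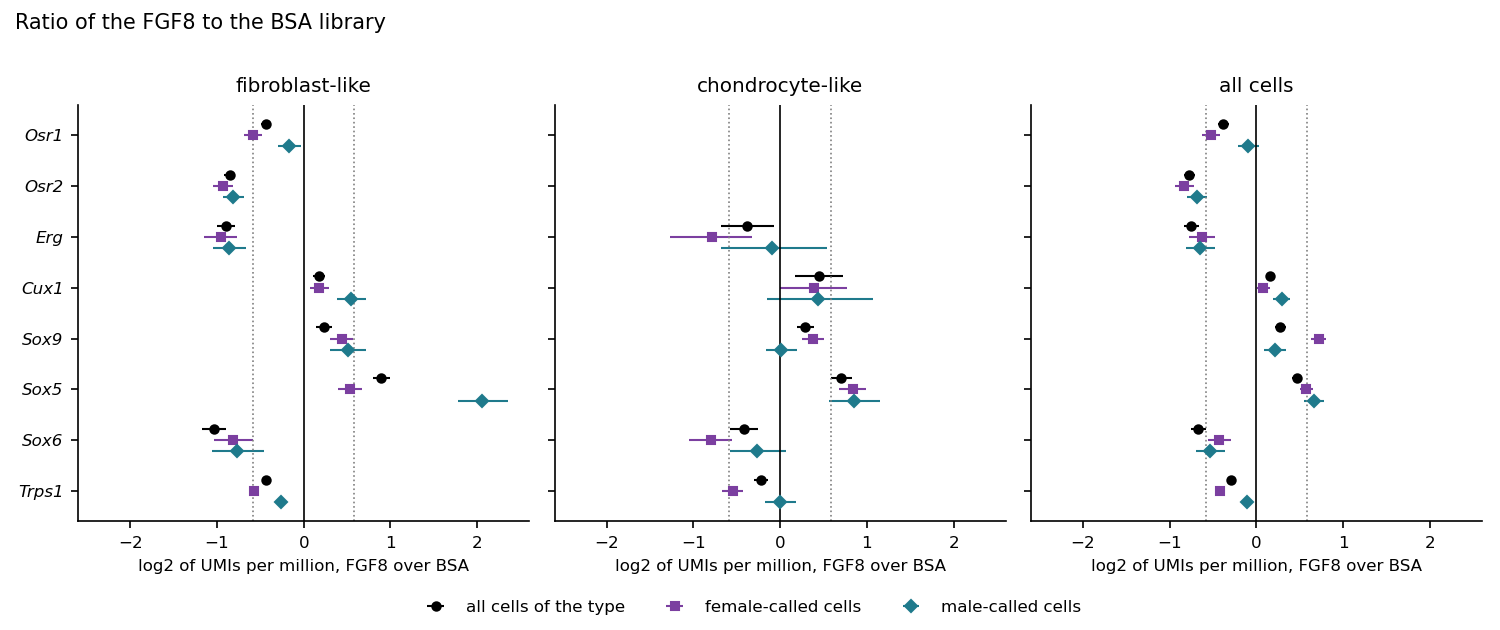
Log2 ratio of CPM, FGF8 over BSA, for each gene in fibroblast-like cells, chondrocyte-like cells and all cells, over all cells of the type (black), female-called cells (purple) and male-called cells (teal). Bars are exact conditional 95% intervals that cover counting error only, dotted lines mark 1.5-fold, and genes with under 50 UMIs are left out; *Osr2* and *Erg* lay below 0 and *Sox5* above 0 in both sexes of the fibroblast-like cells.

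Over all cells the 8 genes were compared by the same rule. *Osr2* went from 72.2 to 42.2 CPM, *Erg* from 38.3 to 22.7 CPM and *Sox6* from 38.0 to 23.9 CPM, each lower by over 1.5-fold, with log2 ratios of -0.77 (-0.84 to -0.71), -0.75 (-0.84 to -0.67) and -0.67 (-0.75 to -0.58). Among female-called and male-called cells, in this order, *Osr2* was -0.83 and -0.69, *Erg* -0.63 and -0.65, and *Sox6* -0.43 and -0.53, which is under 1.5-fold. No member was higher by over 1.5-fold over the pooled cells, where the highest ratio was that of *Sox5*, 0.46 (0.41 to 0.52). *Sox5* was 0.57 (0.50 to 0.65) among female-called and 0.66 (0.55 to 0.78) among male-called cells, and *Sox9* 0.72 (0.63 to 0.81) and 0.21 (0.08 to 0.34), so that 1 member passed 1.5-fold in each sex. Among 18000 genes 6.35% were higher and 10.9% lower.

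The fibroblast-like cells fell into 6 subclusters, drawn without the 8 genes. They differed in their share between the libraries: the *Prg4* and *Mmp3* subcluster made up 14.7% of the BSA and 29.3% of the FGF8 fibroblast-like cells. Of its 10 leading genes 1, *Prg4*, is on the synovial lining list, while *H1f5* and *H2ac8* code for histones and *Pbk* and *Plk1* for kinases of dividing cells, so it is called by its genes alone. The *Tnfrsf19* and *Nrg1* subcluster made up 37.5% and 27.7%. When the subclusters of both libraries were given the weights they had in BSA, an alternative chosen after seeing the data, the log2 ratios moved toward 0: *Osr2* from -0.85 to -0.46, *Erg* from -0.90 to -0.44, *Sox5* from 0.90 to 0.39 and *Sox6* from -1.03 to -0.82. At this fixed mix 1 gene was lower by over 1.5-fold (*Sox6*) and 0 were higher, which are counts of sums from 1 library each, with no test.

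The 8 genes mapped to different subclusters. *Osr2* marked the *Tnfrsf19* and *Nrg1* cells, with 208 CPM (200 to 216) in BSA and 152 CPM (145 to 158) in FGF8, a log2 ratio of -0.46 (-0.54 to -0.37). *Osr1* in the same cells was 81.9 CPM (76.8 to 87.2) and 82.3 CPM (77.5 to 87.3), a ratio of 0.01 (-0.12 to 0.13). Its highest BSA level was instead in the *Fmod* and *Kcnma1* subcluster, whose leading genes include *Comp* and *Spp1* and whose best-matching lists were those of osteoblasts and tenocytes. There it had 156 CPM (147 to 164) in BSA and 83.1 CPM (77.7 to 88.7) in FGF8, a log2 ratio of -0.91 (-1.03 to -0.78), and 22 of the 331 BSA cells held at least 50% of the UMIs. The ratio was -1.05 (-1.29 to -0.82) among female-called and -1.12 (-1.35 to -0.87) among male-called cells. The *Lars2* and *Camk1d* cells, which had a median of only 2539 and 2528 UMIs, gave -0.70 (-1.08 to -0.32) for *Osr1*. There 1 BSA cell held 16.8% of the 101 BSA UMIs. Without the cell with the most UMIs in each library the ratio was -0.54 (-0.95 to -0.13), under 1.5-fold. *Osr2* lay below 0 in all 6 subclusters, with intervals that left out 0 in 4 of them, but in the *Fmod* and *Kcnma1* cells it was -0.50 (-0.88 to -0.14) among female-called and 0.64 (0.05 to 1.29) among male-called cells.

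The counts past 1.5-fold differed between the subclusters. In the *Tnfrsf19* and *Nrg1* cells 2 of the 8 genes were higher (*Sox5* and *Sox9*, both below 8 CPM) and 0 lower, beside 5.26% and 2.56% of all genes. In the *Fmod* and *Kcnma1* cells 1 of 8 was higher (*Sox5*) and 2 lower (*Osr1* and *Sox6*), beside 6.7% and 5.79%. In the *Lpl* and *Dlk1* cells 0 of the 7 genes with enough UMIs were called in either direction, beside 7.33% higher and 5.17% lower. In the *Lars2* and *Camk1d* cells 1 of 8 was higher (*Cux1*) and 2 lower (*Osr1* and *Osr2*), beside 16.6% and 7.01%. Without the top cell of each library *Osr1* was at -0.54 there, which ends its call. In the *Corin* and *Sox18* cells 0 of 5 were higher and 1 lower, *Erg* with 33 and 28 UMIs, beside 8.91% and 5.07%. Without the top cells the *Erg* ratio was -0.58 (-1.46 to 0.29), an interval that held 0.

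The *Prg4* and *Mmp3* subcluster had the largest differences. *Erg* had 30.03 CPM (26.3 to 34.1) in its 250 BSA cells and 7.46 CPM (6.57 to 8.44) in its 970 FGF8 cells, a log2 ratio of -2.01 (-2.27 to -1.75). *Sox6* had 29.8 CPM (26.1 to 33.8) and 7.69 CPM (6.79 to 8.69), a ratio of -1.95 (-2.21 to -1.69). Both lay below 0 in each sex, *Erg* with ratios of -2.62 (-3.17 to -2.11) and -1.59 (-2.09 to -1.07) and *Sox6* with -2.66 (-3.22 to -2.13) and -1.75 (-2.22 to -1.25), female-called first. *Osr2* was also lower, 46.7 CPM (42.1 to 51.7) against 29.4 CPM (27.6 to 31.2), whereas *Osr1* was level, 67.8 CPM (62.2 to 73.7) against 64.3 CPM (61.6 to 67.1). In these cells 8.06% of 13125 genes were higher and 15.3% lower by over 1.5-fold, and 3 of the 8 genes were lower (*Erg*, *Sox6* and *Osr2*) and 0 higher. Lists of other cell types differed in both directions in this subcluster. The 12 chondrocyte markers summed to 402 CPM in BSA and 233 CPM in FGF8. The 7 mast markers summed to 46.6 and 6.60 CPM, and the 9 smooth muscle or pericyte markers to 1016 and 440 CPM. Higher in FGF8 were the 9 blood endothelial markers, with 14.5 and 20.4 CPM, and the 8 macrophage markers, with 7.70 and 12.6 CPM. The part of these lists in the *Erg* and *Sox6* ratios was not tested.

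*Sox5* was highest in the *Lars2* and *Camk1d* cells of few UMIs, where 1 cell held at least 50% of the BSA counts, and next in these *Prg4* and *Mmp3* cells, with 81.3 CPM (75.1 to 87.8) in BSA and 94.1 CPM (90.9 to 97.4) in FGF8. Its ratio there was 0.21 (0.09 to 0.34) over all cells but -0.36 (-0.53 to -0.18) among female-called and 1.42 (1.07 to 1.80) among male-called cells. Its counts were uneven, since 14 of the 250 BSA cells and 64 of the 970 FGF8 cells held at least 50% of them. In the *Fmod* and *Kcnma1* cells *Sox5* had 43.1 CPM (38.8 to 47.8) and 67.1 CPM (62.3 to 72.2), a ratio of 0.64 (0.46 to 0.83), and lay above 0 in both sexes. *Sox6* in these cells had 61.9 CPM (56.7 to 67.5) and 36.3 CPM (32.8 to 40.0), a ratio of -0.77 (-0.96 to -0.58), with -1.05 (-1.45 to -0.63) among male-called and -0.10 (-0.39 to 0.17) among female-called cells.

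*Sox9* was a gene of the *Fmod* and *Kcnma1* cells, 83.9 CPM (77.9 to 90.4) in BSA and 95.8 CPM (90.1 to 102) in FGF8, and of the *Prg4* and *Mmp3* cells, 62.3 CPM (57.0 to 68.1) and 51.0 CPM (48.6 to 53.4). In the *Tnfrsf19* and *Nrg1* cells it was low, 3.07 CPM (2.15 to 4.25) and 7.39 CPM (6.01 to 9.0), beside 13.1 CPM (7.87 to 20.4) and 3.23 CPM (1.81 to 5.33) in erythroid-like cells. *Trps1* was highest in the small *Corin* and *Sox18* subcluster of 40 and 81 cells, 1490 CPM (1407 to 1577) and 1381 CPM (1315 to 1450). It was lowest in the *Lpl* and *Dlk1* cells, 212 CPM (200 to 224) and 260 CPM (250 to 271), the only subcluster in which its interval lay above 0. Its lowest ratio, -0.53 (-0.58 to -0.48), was in the *Prg4* and *Mmp3* cells, 519 CPM (503 to 535) against 358 CPM (352 to 365).

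**Figure D3:**
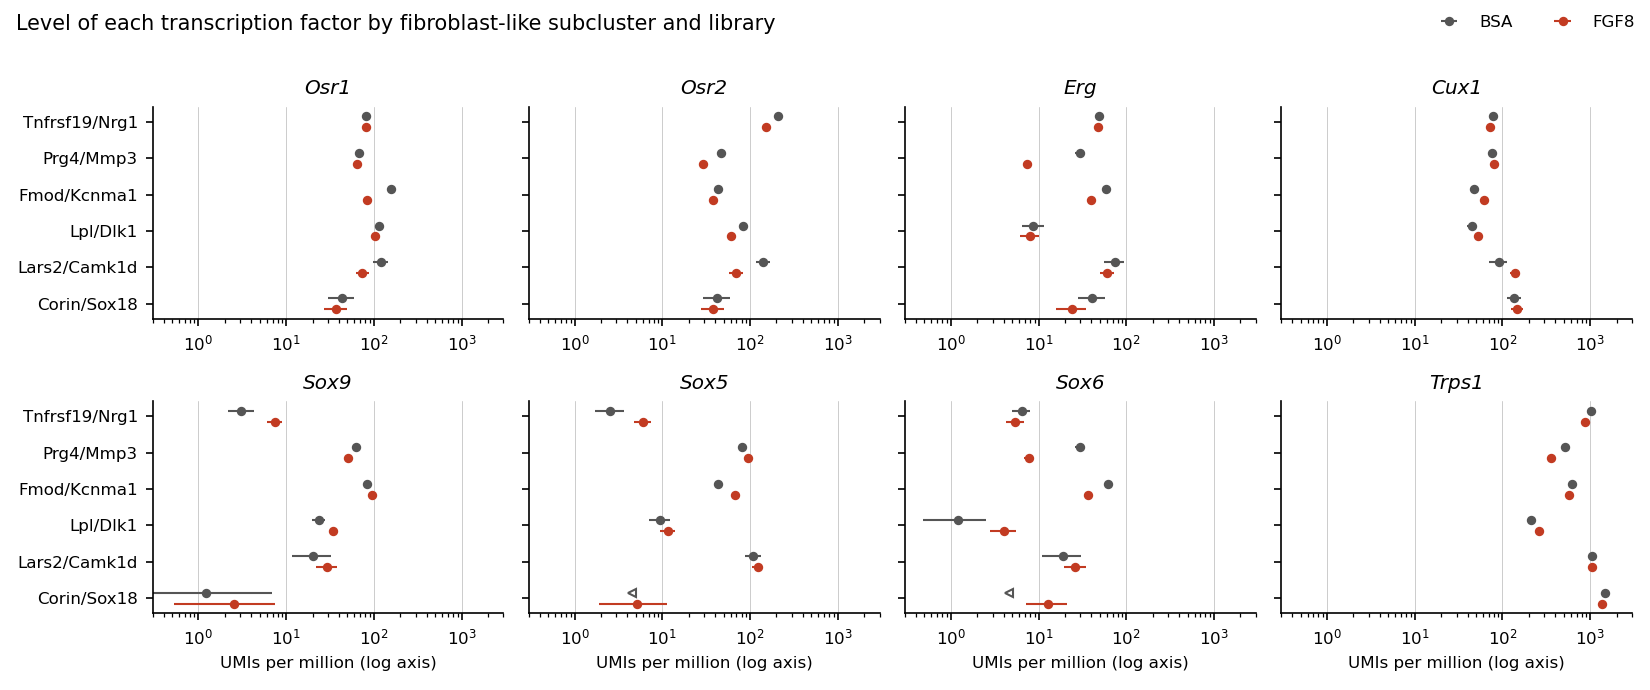
Level of each gene in CPM (horizontal log axis) in the 6 subclusters of fibroblast-like cells, named by their leading genes, for the BSA library (grey) and the FGF8 library (red). Bars are exact Poisson 95% intervals that cover counting error only and open triangles mark the upper limit where no UMI was counted; *Erg* and *Sox6* differ most in the *Prg4*/*Mmp3* cells, *Osr1* in the *Fmod*/*Kcnma1* cells.

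In the chondrocyte-like cells *Sox5* was again higher with FGF8, while the other members with enough UMIs stayed within 1.5-fold. *Sox5* went from 426 to 696 CPM, a log2 ratio of 0.71 (0.58 to 0.83), or 1.63-fold higher. It was 0.84 (0.68 to 0.99) among female-called and 0.85 (0.57 to 1.15) among male-called cells. It was the only 1 of the 6 members with at least 50 UMIs that passed 1.5-fold, and 0 were lower by that rule; 11.7% of 7838 genes were higher and 13.5% lower. After thinning, the share of cells with a *Sox5* UMI was 49.2% (35.9 to 62.5) in BSA and 68.1% (59.6 to 75.8) in FGF8, intervals that overlap. Marker lists differed between the same cells: the 12 chondrocyte markers summed to 71609 CPM in BSA and 50472 CPM in FGF8, the 9 fibroblast markers to 9739 and 4218 CPM, the 10 keratinocyte markers to 45.3 and 209 CPM and the 8 macrophage markers to 9.79 and 143 CPM. Their part in the ratios of these cells was not tested.

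*Sox6* had a log2 ratio of -0.42 (-0.58 to -0.25), with -0.80 (-1.05 to -0.55) among female-called and -0.26 (-0.58 to 0.06) among male-called cells. *Sox9* was 0.29 (0.20 to 0.39) over all the cells, 0.38 (0.25 to 0.51) among female-called cells and 0.01 (-0.16 to 0.19) among male-called cells. *Erg* was -0.38 (-0.68 to -0.07), and its interval among male-called cells, -0.68 to 0.54, held 0. *Cux1* was 0.44 (0.17 to 0.73) and *Trps1* -0.22 (-0.30 to -0.14), the latter with -0.55 (-0.67 to -0.42) among female-called and 0.00 (-0.17 to 0.18) among male-called cells. The male-called values rest on 14 BSA and 80 FGF8 cells.

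Single chondrocyte-like cells were asked which of these genes they held together, after thinning to 2000 UMIs. In BSA a *Sox5* UMI was found in 20 of 37 cells with a *Sox9* UMI (54.1%, 36.9 to 70.5) and in 9 of 22 cells without one (40.9%, 20.7 to 63.6). In FGF8 it was found in 66 of 99 (66.7%, 56.5 to 75.8) and 28 of 39 (71.8%, 55.1 to 85.0). The intervals overlapped in both libraries, so no link between *Sox9* and *Sox5* was detectable cell by cell at this depth. In FGF8 fibroblast-like cells a *Sox5* UMI was found in 17.5% (12.6 to 23.2) of 212 cells with a *Sox9* UMI and 6.15% (5.31 to 7.08) of 2958 without. The intervals of the BSA shares, 8.75% (3.59 to 17.2) of 80 and 3.89% (2.98 to 4.97) of 1544, overlapped. An *Osr2* UMI was rarer beside *Sox9*, in 5.0% (1.38 to 12.3) against 20.1% (18.1 to 22.2) of the same BSA cells and in 7.55% (4.38 to 12.0) against 12.6% (11.5 to 13.9) in FGF8, where the intervals met. No link was detectable for *Osr1* and *Osr2* in fibroblast-like cells: an *Osr2* UMI was found in 19.8% (14.8 to 25.6) of 227 BSA cells with an *Osr1* UMI and 19.3% (17.2 to 21.4) of 1397 without, and in 13.3% (10.1 to 16.9) of 415 and 12.2% (11 to 13.4) of 2755 FGF8 cells. *Sox5* went with *Prg4*: in BSA fibroblast-like cells it was found in 20% (13 to 28.7) of 110 cells with a *Prg4* UMI and 2.97% (2.18 to 3.96) of 1514 without. In FGF8 the shares were 15.9% (13.5 to 18.6) of 829 and 3.72% (2.99 to 4.56) of 2341. All of these fibroblast-like shares pool the subclusters. In the *Tnfrsf19* and *Nrg1* cells *Sox9* (3.07 and 7.39 CPM) and *Sox5* (2.56 and 5.97 CPM) were both low, while *Osr2* had its highest level there. The part of the subcluster mix in these shares was not tested. *Prg4* UMIs were also common in other types of the FGF8 library. There 11.5% of thinned erythroid-like and 27.0% of thinned neutrophil-like cells held a *Prg4* UMI, against 1.30% and 1.35% in BSA. Whether these came from free RNA or from doublets was not tested. The share in FGF8 fibroblast-like cells was 26.2%, so a *Prg4* UMI there does not by itself show expression. The FGF8 levels lay further apart, at 2027 CPM in fibroblast-like, 160 CPM in neutrophil-like and 102 CPM in erythroid-like cells.

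The genes that SOX9 switches on together with SOX5 and SOX6 were followed as a list of 20. It holds the collagens of cartilage (*Col2a1*, *Col9a1* to *Col9a3*, *Col11a1*, *Col11a2*), the matrilins, *Acan* (aggrecan, the main proteoglycan) and others. In chondrocyte-like cells 10 of the 20 were lower in FGF8 by over 1.5-fold and 1 was higher, beside 11.7% of all genes higher and 13.5% lower, with a median log2 ratio of -0.57 beside -0.08 for all genes of these cells. *Sox9* and *Sox5* were above 0. *Matn1* and *Matn3*, which code for matrilins of growth plate cartilage, were the lowest. *Matn1* had 921 CPM in BSA and 357 CPM in FGF8, a ratio of -1.37 (-1.48 to -1.26). *Matn3* had 1474 and 638 CPM, a ratio of -1.21 (-1.29 to -1.12). The highest were *Wwp2*, the host gene of a cartilage microRNA, with 210 and 356 CPM and a ratio of 0.76 (0.59 to 0.94), and *Papss2*, an enzyme that supplies sulfate for proteoglycans, at -0.01 (-0.18 to 0.17).

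The values of this list differed between the sexes. In female-called cells 17 of the 20 were lower by over 1.5-fold and the median was -1.17, among male-called cells 5 were lower and 2 higher and the median was -0.02. Of the 20, 11 are also among the 12 markers that named these cells. In fibroblast-like cells, where cartilage matrix genes are low, 9 of 19 were lower and 0 higher, beside 12.5% and 9.71% of all genes, with a median of -0.56 beside -0.07, and the medians within sex were -0.40 and -0.44. There *Ucma* (-1.52) and *Matn3* (-1.27) were lowest and *Fgfr3* (0.27) and *Chst11* (0.22) highest.

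**Figure D4:**
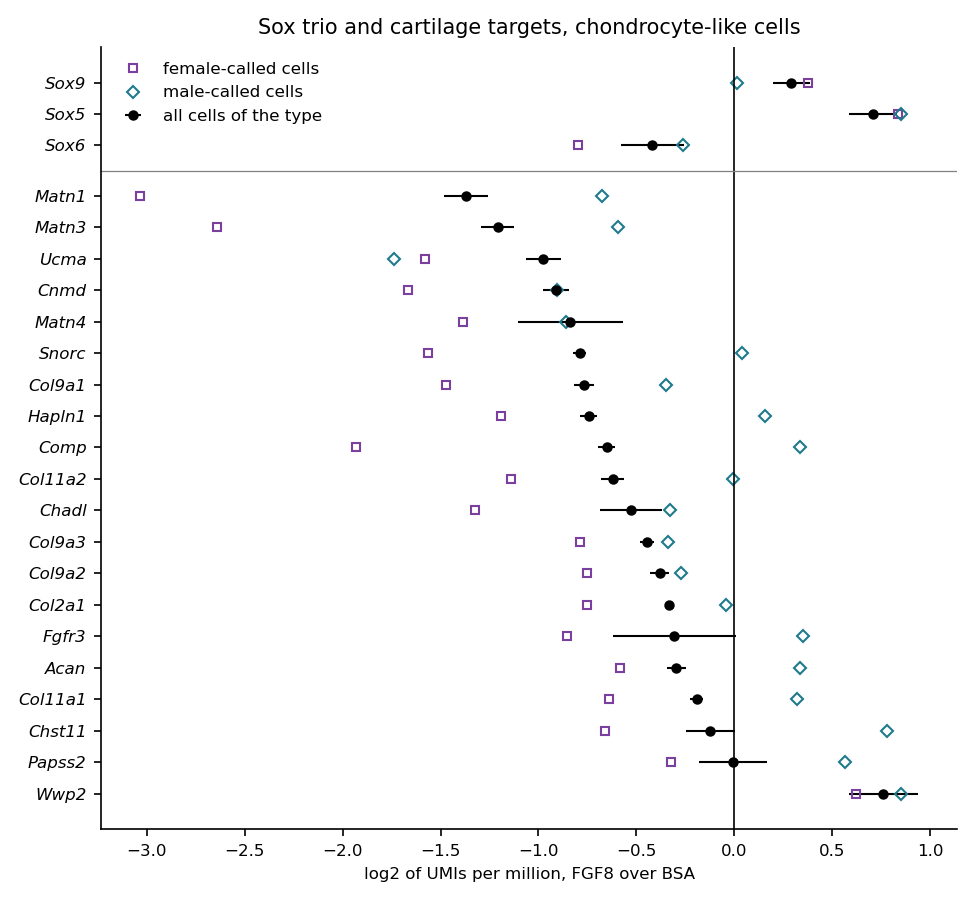
Log2 ratio of CPM, FGF8 over BSA, in chondrocyte-like cells for *Sox9*, *Sox5* and *Sox6* (above the line) and the 20 cartilage genes they switch on (below it). Black points with exact 95% counting intervals are all cells of the type, purple squares female-called and teal diamonds male-called cells; 19 of the 20 genes lie below 0 over all cells, 19 among female-called and 11 among male-called cells.

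Genes of the joint interzone and cavity, a list of 15, had 4 higher and 4 lower in fibroblast-like cells, beside 9.71% and 12.5% of all genes, with a median of -0.44 beside -0.07. *Prg4* (264 and 2027 CPM, 2.94) and *Has2*, which makes hyaluronan (36.2 and 60.9 CPM, 0.75), were highest. *Wnt9a*, a signal that starts joint formation (31.9 and 16.2 CPM, -0.98), and *Gdf5*, the growth factor that marks the interzone (1.46 and 0.830 CPM, -0.82), were lowest, on the same side of 0 as *Osr1*, *Osr2* and *Erg*. In chondrocyte-like cells 2 of 10 were higher and 3 lower, beside 11.7% and 13.5%, with a median of 0.03 beside -0.08. Here *Enpp1*, which makes pyrophosphate (113 and 498 CPM, 2.15), and *Gdf5* (6.12 and 19.1 CPM, from 10 and 61 UMIs, 1.64, with 2.91 among female-called and -0.43 among male-called cells) were highest, and *Nog*, a BMP antagonist (47.7 and 24.7 CPM, -0.95), and *Sfrp2*, a WNT modulator (19.0 and 10.0 CPM, -0.92), lowest.

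Genes of hypertrophy and ossification, the late steps that TRPS1 is known to hold back, were lower in 7 of 14 and higher in 1 of 14 in chondrocyte-like cells, beside 13.5% and 11.7% of all genes, with a median of -0.57 beside -0.08. *Panx3*, a channel of hypertrophic cells (215 and 57.6 CPM, -1.90), and *Col10a1*, the collagen that defines them (1942 and 746 CPM, -1.38), were lowest. *Spp1*, which codes for osteopontin (3049 and 35604 CPM, 3.55), and *Runx3* (54.4 and 80.2 CPM, 0.56) were highest. The medians within sex lay on opposite sides of 0, -0.52 among female-called and 0.54 among male-called cells. In fibroblast-like cells 2 of 14 were higher, *Spp1* (2.38) and *Vegfa* (0.74), and 2 lower, *Col10a1* (-0.74) and *Mef2c* (-0.61), beside 9.71% and 12.5% of all genes, with a median of -0.28 beside -0.07 over all these cells but 0.22 among female-called and 0.17 among male-called cells.

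Other limb transcription factors and relatives of the 8 were counted in the same way, beside 9.71% of all genes higher and 12.5% lower in fibroblast-like cells (median -0.07) and 11.7% and 13.5% in chondrocyte-like cells (median -0.08). Of 35 other limb skeletal factors in fibroblast-like cells 4 were higher and 7 lower (median -0.20), with *Foxc2* (1.44) and *Barx2* (0.86) highest and *Lmx1b* (-0.83) and *Foxp2* (-0.83) lowest. Of 25 in chondrocyte-like cells 5 were higher and 4 lower (median 0.06), with *Lef1* (1.66) and *Foxc2* (1.33) highest and *Klf2* (-2.20) and *Foxc1* (-0.82) lowest. Of 21 SOX, ETS, GATA and CUT relatives in fibroblast-like cells 4 were higher and 2 lower (median -0.03). *Etv4*, an ETS gene known as a target of FGF signalling, was highest (4.70 and 20.7 CPM, 2.14) and *Sox7* next (1.43), while *Gata6* (-0.75) and *Sox18* (-0.75) were lowest. In chondrocyte-like cells 1 of 9 was higher, *Etv5*, another ETS gene of the FGF response (11.6 and 32.3 CPM, 1.47), followed by *Elk3* (0.18), and 2 were lower, *Ets2* (-0.74) and *Fli1* (-0.72), with a median of -0.42. *Erg*, itself an ETS gene, lay on the other side of 0 from *Etv4* and *Etv5*.

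Outside connective tissue and cartilage the ratios differed from type to type. In Schwann-like cells *Sox5* had a log2 ratio of -0.07 (-0.19 to 0.06) and *Sox6* of -0.20 (-0.37 to -0.03), although *Sox5* was 0.50 (0.31 to 0.69) among female-called and -0.56 (-0.81 to -0.32) among male-called cells. In smooth muscle or pericyte-like cells *Sox5* was -0.08 (-0.20 to 0.03). *Erg* in blood endothelial-like cells was 0.27 (0.04 to 0.50), in contrast to its negative ratio in fibroblast-like cells. *Trps1* in neutrophil-like cells was 0.00 (-0.16 to 0.15) and in macrophage-like cells 0.13 (0.04 to 0.22), and *Cux1* in these types was 0.05 (-0.16 to 0.26) and 0.15 (0.04 to 0.26).

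Counted by the same rule, 0 of the 3 members with enough UMIs were called in blood endothelial-like cells, beside 10.3% of all genes higher and 8.09% lower. In smooth muscle or pericyte-like cells 0 of 6 were called, beside 5.02% and 3.02%. In Schwann-like cells 1 of 5 was higher (*Sox9*, from 12 and 49 UMIs) and 0 lower, beside 4.19% and 3.57%. There 1 FGF8 cell held 36.7% of the *Sox9* UMIs, and the 12 chondrocyte markers summed to 129 CPM in BSA and 589 CPM in FGF8, whose part in this ratio was not tested. In macrophage-like cells 1 of 7 was higher (*Sox5*) and 1 lower (*Sox9*), beside 12.2% and 5.95%. The *Sox9* ratio of -0.98 rested on 1 BSA cell with 73.1% of the UMIs, and without the top cell of each library it was 0.29 (-0.66 to 1.31), which ends the call. *Sox5* was at -0.50 (-1.46 to 0.38) among female-called and 1.25 (0.41 to 2.23) among male-called macrophage-like cells. In neutrophil-like cells 1 of 3 was higher (*Sox5*, from 11 and 88 UMIs) and 0 lower, beside 21% and 8.97%. In erythroid-like cells 0 of 2 were higher and 1 lower (*Trps1*, from 106 and 221 UMIs, 1.53-fold), beside 5.22% and 39.5%, and *Trps1* was at -0.62 (-0.96 to -0.27) over all these cells, where the median of all genes was -0.46; only 1 of its BSA UMIs was male-called. The *Prg4* and *Il1rl1* cells of the finer partition had 0 of 8 higher and 2 lower (*Erg* and *Sox6*), beside 7.65% and 13.9%.

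The keratinocyte-like cells differed most among the rest. *Sox5* had 143 UMIs in BSA and 1145 UMIs in FGF8, or 60.3 CPM (50.8 to 71.0) and 263 CPM (248 to 279), a log2 ratio of 2.13 (1.88 to 2.39), and *Cux1* had a ratio of 0.62 (0.51 to 0.74). Among female-called and male-called cells *Sox5* was 1.52 (1.18 to 1.86) and 3.40 (2.65 to 4.28), the latter from 14 male-called BSA UMIs, and *Cux1* was 0.22 (0.02 to 0.42) and 0.55 (0.34 to 0.77). These were the 2 of 7 members that were higher, and 1 was lower (*Osr2*, from 38 and 30 UMIs), beside 13% of 9796 genes higher and 6.52% lower. Only 5 of the 347 BSA cells and 12 of the 480 FGF8 cells held at least 50% of the *Sox5* UMIs, and the median cell had 1552 and 1850 UMIs. The epithelium had been removed before dissociation. Lists of the other types with much *Sox5* differed in both directions in the keratinocyte-like cells. The 12 chondrocyte markers, all detected, summed to 113 CPM in BSA and 311 CPM in FGF8. The 9 Schwann markers summed to 113 and 94.4 CPM, and the 9 smooth muscle or pericyte markers to 362 and 317 CPM. The part of these lists in the *Sox5* ratio was not tested. In mast-like cells *Erg* had a ratio of -0.91 (-1.34 to -0.50), from 150 and 72 UMIs, and *Trps1* of -1.45 (-2.09 to -0.85), from 94 and 31 UMIs of which 1 BSA cell held 53.2% of the BSA ones, and -0.70 (-1.46 to 0.03) without the top cells. *Erg* was 0.09 (-0.63 to 0.75) among female-called and -1.17 (-1.94 to -0.35) among male-called cells, and *Trps1* -1.0 (-2.28 to 0.07) and -2.49 (-3.53 to -1.47). The female-called values rest on only 20 BSA and 10 FGF8 cells, and the male-called values on 4 and 19. *Erg* and *Trps1*, both lower, were 2 of 3 members with enough UMIs, beside 13% of 1994 genes higher and 14.5% lower.

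Across all clusters the genes most like each of the 8 were found by the Pearson correlation of log2(CPM + 1) over 36 sums, 18 clusters of the finer partition in each library, among 14577 genes. These sums share their libraries and the correlations carry no test. *Osr1* was followed most closely by *Fbn2* (0.92), *Loxl1* (0.92) and *Sertad4* (0.92), and *Osr2* by *Dpt* (0.94), *Svep1* (0.93) and *Lrrc17* (0.92). The nearest to *Erg* were *Papss2* (0.87), *Socs2* (0.80) and *Rapgef3* (0.79), and to *Cux1* *Ptbp3* (0.94), *Tet3* (0.93) and *Atxn3* (0.93). *Sox9* was nearest to *Pcolce2* (0.89), *Sdc4* (0.86) and *Enpp1* (0.85), and *Trps1* to *Fgfr2* (0.94), which codes for an FGF receptor, *Kdm5b* (0.91) and *Uso1* (0.90). *Sox5* was nearest to *Zbtb7c* (0.81), *Sox6* (0.81) and *Phlda1* (0.80), and *Sox6* to *Sox5*, *Moxd1* (0.80) and *Prdm16* (0.79). Among the 8 themselves the closest pairs were *Osr1* with *Osr2* (0.87) and *Sox5* with *Sox6* (0.81), although *Sox5* and *Sox6* had opposite ratios between the libraries in fibroblast-like and chondrocyte-like cells. By the Spearman rank correlation the genes nearest to *Cux1* were others, *Gm16599* (0.93), *Sema4d* (0.89) and *Rasgef1b* (0.88). Nearest to *Sox5* were then *Pdgfa* (0.81), *Kifc3* (0.78) and *Sox6* (0.77), and to *Sox6* *Pdgfa* (0.82), *Prdm16* (0.78) and *Zbtb7c* (0.77). For the other members most or all of the Pearson genes recurred.

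On GRCm39 (GENCODE vM39) *Osr1* lies on chromosome 12 (9538061 to 9631513, plus strand), *Osr2* on chromosome 15 (35296196 to 35303673, plus), *Trps1* on chromosome 15 (50518148 to 50753859, minus) and *Erg* on chromosome 16 (95160028 to 95387452, minus). *Cux1* lies on chromosome 5 (136276755 to 136596408, minus), *Sox9* on chromosome 11 (112673009 to 112678586, plus), *Sox5* on chromosome 6 (143774151 to 144727703, minus) and *Sox6* on chromosome 7 (115070106 to 115638860, minus). Per the study's methods the UMIs were counted by Cell Ranger with default settings, under which reads in introns count as well.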

How the data were processed

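Cells were captured by the authors with droplet 3′ chemistry. The authors deposited UMI counts, not normalised, for every gene in every barcode, made with Cell Ranger 9.0.0 on GRCm39 and not filtered further; the submitters' processing notes name mm10 as well, but the gene identifiers matched GRCm39 (33185 of 33696 in GENCODE vM39). Each library gave 3703 (BSA) or 7249 (FGF8) barcodes.

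Cells with over 200 and under 7500 genes and under 15% mitochondrial counts were kept (the study's filters). The libraries were merged, normalised by SCTransform and integrated by CCA (Seurat 5.3.0, sctransform 0.4.2, R 4.3.3; 30 components, resolution 0.05, and 0.5 for the finer partition) on 2992 of 3000 variable features, without the 8 members. Fibroblast-like cells were re-clustered at 0.2 on 2666 of 3000, also without the 354 genes of the study's gene tables and X- and Y-linked genes. Clusters were called X-like from marker lists; the naming rules beyond the lists (at least 3 detected markers, with a marker among the 10 leading genes or a lead of 1.5 log2 units over the next list) were set after seeing the data. One main cluster, of macrophage-like, keratinocyte-like and mast-like cells, stayed unnamed. The members and gene lists were chosen with earlier results of these data known.

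UMIs were summed in Python 3.11.15 (numpy 2.4.6, scipy 1.17.1, pandas 2.3.3) and plotted with matplotlib 3.10.9. Intervals are exact Poisson (levels), exact conditional binomial (ratios) and Clopper-Pearson (shares). Types needed at least 20 cells per library, a minimum not applied to the split by called sex, and list genes 50 UMIs. Where a library had no UMI of a gene in a type, 3 counts stood in for it. Genes named are the members, in each list the 2 highest and 2 lowest ratios, and for each member the 3 most alike genes with at least 200 UMIs. Female-called cells held an *Xist* UMI and none of *Ddx3y*, *Eif2s3y*, *Kdm5d* and *Uty*, male-called cells the reverse. Thinning to 2000 UMIs left out 343 BSA and 781 FGF8 cells. Scrublet (scanpy 1.11.5) called 0 doublets in either library at its own threshold, which means that it did not work here; in an alternative the 96 BSA (2.95%) and 389 FGF8 (5.79%) cells with the highest scores were removed, at an assumed rate of 0.8% per 1000 barcodes. The ratio intervals were tried on simulated counts of the fibroblast-like comparison over 15887 genes, drawn with counting error only. They held the true ratio for 98.0% of 200 changed and 95.8% of the other genes. Such counts follow the model that the intervals assume. The simulation therefore cannot tell whether the intervals are wide enough where few cells hold most UMIs, or for the spread between animals.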

Additional observations from a re-analysis of the deposited data

Results flagged for a closer look

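Several members had ratios on opposite sides of 0 in different cells, with counting intervals that left out 0; these differences were not tested, since each group is 1 library. Among the fibroblast-like subclusters *Sox9* was at 1.27 in the *Tnfrsf19* and *Nrg1* cells and -0.29 in the *Prg4* and *Mmp3* cells, and *Trps1* at 0.30 in the *Lpl* and *Dlk1* cells and -0.53 in the *Prg4* and *Mmp3* cells. Among the cell types *Erg* was at 0.27 in blood endothelial-like and -0.91 in mast-like cells, and *Cux1* at 0.62 in keratinocyte-like and -0.23 in Schwann-like cells. Without the top cell of each library the Schwann-like *Cux1* ratio was -0.17 (-0.36 to 0.01), an interval that held 0. *Sox9* was at 1.44 in Schwann-like cells (12 and 49 UMIs, 36.7% of the latter in 1 cell), where the 12 chondrocyte markers summed to 129 CPM in BSA and 589 CPM in FGF8 and their part was not tested, and at -0.98 in macrophage-like cells (52 and 49 UMIs), where 1 BSA cell held 73.1% of the UMIs and the ratio without the top cells was 0.29 (-0.66 to 1.31). *Trps1* was at 0.37 in keratinocyte-like and -1.45 in mast-like cells, where the ratio without the top cells was -0.70 (-1.46 to 0.03).

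Female-called and male-called cells also gave opposite signs, again untested, and animals and sex cannot be told apart in a pool. *Trps1* was at -0.40 in female-called and 0.75 in male-called smooth muscle or pericyte-like cells, and at -0.79 and 3.42 in erythroid-like cells, the latter from 1 male-called BSA UMI. *Sox5* was at 0.50 and -0.56 in Schwann-like cells and at -0.36 and 1.42 in the *Prg4* and *Mmp3* cells, where *Osr1* was at -0.26 and 0.30. In the *Tnfrsf19* and *Nrg1* cells *Erg* was at 0.47 and -0.39, *Cux1* at -0.24 and 0.52 and *Trps1* at -0.12 and 0.20. *Osr2* was at -0.50 and 0.64 in the *Fmod* and *Kcnma1* cells, and *Trps1* at 0.39 and -0.70 in the *Corin* and *Sox18* cells. The *Corin* and *Sox18* values rest on 24 BSA and 19 FGF8 female-called cells and on 11 and 51 male-called cells.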

How the results depend on the processing

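With 1 library per group no spread between animals is known, and the depth limits the small types most, among them the BSA chondrocyte-like and the mast-like cells. No paired analysis was possible because each group is 1 library and the labels carry no replicate numbers; for the same reason no replicate could be left out. Of the recomputed counts of members past 1.5-fold, 56 stayed within 1.5 times the reported count and 18 did not. In fibroblast-like cells the count higher, 1, became 2 at a clustering resolution of 0.2 and 0 with equal weight of cells, thinning to 2000 UMIs, female-called cells or the BSA subcluster mix, and the count lower, 3, became 0 at resolution 0.2 and 1 at the BSA mix. In chondrocyte-like cells the count higher, 1, became 2 when the type was called per cell. The count lower, 0, became 1 with the stricter cell filter or thinning to 2000 UMIs and 2 with no cell filter or in female-called cells. A count can hide a change of gene. Thinned to 5000 UMIs, *Sox5* in these cells fell to 0.51, under 1.5-fold, while *Cux1* rose to 0.83. *Cux1* was at 0.05 when the highest doublet scores were removed. Over all cells the count higher, 0, became 1 with the stricter filter, no filter, female-called or male-called cells, and the count lower, 3, became 1 with the stricter filter or equal weight. Many recomputed single ratios left the counting interval of the main ratio. In fibroblast-like cells 60 left it with their sign kept, and 58 stayed inside. In chondrocyte-like cells 26 left it and 51 stayed inside, and over all cells 50 left it and 22 stayed inside. Another 3 single ratios changed sign. At resolution 0.2 these were *Cux1* (-0.0077) and *Sox6* (0.33) in fibroblast-like cells. The last was *Trps1* (0.0038) in male-called chondrocyte-like cells. The resolution of 0.2 kept 887 and 1270 fibroblast-like cells, while a cluster of 608 and 1593 cells led by *Prg4* was named tenocyte-like. The fibroblast-like set at this resolution is therefore not the set of the main comparison, and beyond that the cause was not tested. In fibroblast-like cells *Osr2* ranged from -0.93 to -0.46, *Erg* from -0.95 to -0.09 and *Sox5* from 0.36 to 2.06, in chondrocyte-like cells *Sox5* from 0.51 to 0.85, each with its sign kept in every alternative run. The BSA mix and leaving out the subcluster of few UMIs were chosen after seeing the data.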
